A study of Mus musculus with 6 samples.

Results

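The 8 genes described here encode the common gamma chain, shared by the receptors for IL-2, IL-4, IL-7, IL-9, IL-15 and IL-21, and the chains that pair with it: Il2rg, Il7r, Il2ra, Il2rb, Il15ra, Il4ra, Il21r and Il9r. They were chosen by symbol, and each matched 1 row among the 55335 genes of the count table. All 8 passed the filter on low counts and were tested. The 6 libraries are bulk RNA-seq of CD4 T cells sorted from the colon lamina propria, the connective tissue under the gut epithelium. Spleen naive CD4 T cells of TcfGFP mice, in which GFP reports the locus of Tcf7, had been transferred into Rag1 KO mice, which lack lymphocytes of their own, and colitis followed. Both groups share this donor, this host and this disease. They differ in the sort gate, with 3 GFP-positive libraries, labelled TCF7+ and stem-like T cell, and 3 GFP-negative libraries, labelled TCF7- and effector T cell. The labels used here give no mouse age, no time after transfer and no word on pooling. They also do not tie replicates to individual mice, and the p-values therefore cover variation among these libraries, some of which may be technical.

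Each receptor of this family gains its specificity from the chains that pair with the gamma chain. Its signal comes from JAK1 on a partner chain and JAK3 on the gamma chain, which phosphorylate STAT proteins. IL-7 sustains naive and memory T cells, IL-2 drives the growth of activated cells and the survival of regulatory T cells, and IL-15 acts through the IL-2 receptor beta chain on memory and cytotoxic cells. IL-4, IL-9 and IL-21 steer helper T cell types, and T cells commonly lower Il7r on activation while raising Il2ra and Il2rb.

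Total counts per library ran from 4309500 to 7462076, and 3 counts of a gene corresponded to 0.430 to 0.690 CPM (counts relative to the TMM-scaled library total). Summed T cell markers, 10 genes with Cd3e, Cd4 and Trac among them, came to 7761 to 8662 CPM in GFP-negative and 6682 to 8478 CPM in GFP-positive libraries. Tcf7 itself, the gene of the reporter, had 71.3 to 140.5 CPM in GFP-negative and 140.8 to 237 CPM in GFP-positive libraries (edgeR adjusted p = 0.367), so its mRNA was present in both gates. GFP-positive replicate 3 stood apart, with 9 myeloid markers summing to 7159 CPM against 132 to 192 CPM in the other 5 libraries and 4 antigen-presentation markers to 7016 CPM against 183 to 429 CPM. In the same library 5 stromal and endothelial markers summed to 335 CPM (at most 10.7 CPM elsewhere) and 4 epithelial markers to 198 CPM (at most 21.5 CPM). The 5 natural killer and innate lymphoid markers summed to 812 CPM there (at most 123 CPM elsewhere), mostly from Tyrobp (487 CPM) and Fcer1g (302 CPM). Ncr1, Klrb1c and Eomes of that list had 7.60, 8.61 and 7.17 CPM in it, against at most 8.19, 7.82 and 47.1 CPM elsewhere. Adgre1, a macrophage marker, was at 0 in the other 5 libraries. In bulk samples, fewer cells of a type and less RNA per cell cannot be told apart.

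Within the family, the data show Il7r higher and Il2rb lower in the GFP-positive gate, with Il2rg and Il15ra higher by narrow margins and the CPM of the other 4 chains overlapping. Il7r had a ratio of mean CPM of 1.73 in favour of GFP-positive cells, and Il2rb one of 1.42 in favour of GFP-negative cells. Neither gene passed an adjusted p of 0.05 in edgeR's quasi-likelihood test over 11074 genes, which called 0 of the 8 members, where 0.108% of all tested genes were called. At an unadjusted p under 0.05 there were 2 of 8, Il7r and Il2rb, against 10.3% of all tested genes; DESeq2 called both and limma on TPM neither. CPM values did not overlap between the gates for 3 members that were higher in GFP-positive cells (Il7r, Il2rg and Il15ra), where 7.25% of all tested genes were so placed, and for 1 that was lower (Il2rb), where 8.80% were. Of the log2 fold changes (GFP-positive minus GFP-negative), 5 were positive and 3 negative, with a median of 0.20 beside 0.016 over all tested genes.

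**Figure D1:**
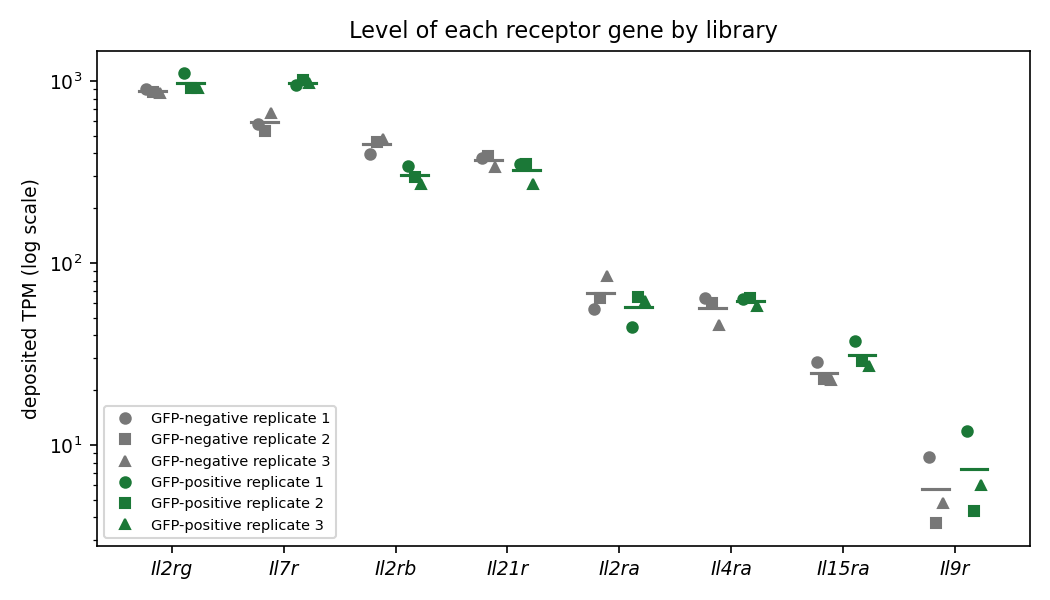
Deposited TPM (log axis) of each receptor gene in the 6 libraries, GFP-negative in grey and GFP-positive in green, with a bar at each group's mean (n = 3). The Il7r points of the 2 gates are separate, as are those of Il2rb in the other direction. Those of Il2rg are separate by a narrow margin, higher in GFP-positive libraries. Il2rg has the highest mean TPM over all 6 libraries and Il9r the lowest.

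Compared per length, on the deposited TPM scale, the genes fell into tiers that were alike in all 6 libraries. Il2rg was the most abundant, at 927 ± 88.7 TPM over the 6 libraries (SD), followed by Il7r at 785 ± 216, Il2rb at 375 ± 86.8 and Il21r at 345 ± 40.5. Il2ra at 62.9 ± 13.3, Il4ra at 59.3 ± 7.12 and Il15ra at 28.0 ± 5.25 TPM were much lower, and Il9r had 6.56 ± 3.12 TPM. Neighbours in this order overlapped in their ranges for Il2rg and Il7r, for Il2rb and Il21r, and for Il2ra and Il4ra, so these pairs cannot be ordered over all libraries. The other steps, from Il7r to Il2rb, from Il21r to Il2ra, from Il4ra to Il15ra and from Il15ra to Il9r, held in 6 of 6 libraries. Il7r ranked 2 behind Il2rg in the 3 GFP-negative libraries and in GFP-positive replicate 1, and ranked 1 in GFP-positive replicates 2 and 3.

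Il7r encodes the IL-7 receptor alpha chain, which also forms the TSLP receptor (ENSMUSG00000003882.5, chromosome 15, 9505788 to 9530176, minus strand, GENCODE M21 on mm10). Its counts were 4840, 3614 and 4976 in the GFP-negative gate and 8550, 7279 and 12301 in the GFP-positive gate (replicates 1 to 3), so counting error is small here. On the CPM scale these were 938, 822 and 1091 for GFP-negative and 1481, 1673 and 1764 for GFP-positive libraries. Every GFP-positive library lay above every GFP-negative one. The log2 fold change was 0.79 ± 0.15 (SE), with an unadjusted p that ranked 24 among the 11074 genes and an edgeR adjusted p of 0.102. The adjusted p was 2.05e-04 with no expression filter in edgeR, 9.21e-06 in DESeq2 and 0.0233 with a replicate block in edgeR, and over all 14 alternatives it ran from 9.21e-06 to 0.498. The fold change itself moved little, from 0.69 without GFP-negative replicate 2 to 0.90 without GFP-negative replicate 3. When GFP-positive replicate 3, the library that stood apart, was left out, it was 0.74 (edgeR adjusted p = 0.0774).

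Il2rg encodes the common gamma chain (ENSMUSG00000031304.18, chromosome X, 101264378 to 101268255, minus strand). It had 745, 694 and 716 CPM in GFP-negative and 877, 772 and 853 CPM in GFP-positive replicates 1 to 3. The groups did not overlap, but the gap was narrow, 745 against 772 CPM. The log2 fold change was 0.22 ± 0.13 (SE; edgeR adjusted p = 0.649), and 0.21 without GFP-positive replicate 3. Its exons overlap those of Gm20489 on the same strand, a gene with 0 counts in all 6 libraries.

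The promoters of Il7r and Il2rg are shown because they belong to the member with the largest fold change and to the chain it pairs with. They span 250 bases before to 50 after the RefSeq start site (GRCm38.p6), printed 5′ to 3′ on the gene's strand. The Il7r window is chr15:9529827-9530126 (minus strand), and GENCODE M21 places the 5′ end of the gene upstream of it. The Il2rg window is chrX:101268206-101268505 (minus strand). Capitals mark matches, on either strand, to any of 5 motifs: CTTTGA (TCF/LEF), TGTTTAC (FOXO), TTCNNNGAA (STAT), GGAAGT (ETS) and TGTGGT (RUNX).
Il7r promoter: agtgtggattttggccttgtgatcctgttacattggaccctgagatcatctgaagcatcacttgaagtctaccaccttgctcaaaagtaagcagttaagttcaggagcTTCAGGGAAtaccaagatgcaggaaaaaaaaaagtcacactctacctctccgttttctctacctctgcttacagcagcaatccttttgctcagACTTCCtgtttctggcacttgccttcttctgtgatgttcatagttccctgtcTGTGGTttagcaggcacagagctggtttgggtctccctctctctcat
Il2rg promoter: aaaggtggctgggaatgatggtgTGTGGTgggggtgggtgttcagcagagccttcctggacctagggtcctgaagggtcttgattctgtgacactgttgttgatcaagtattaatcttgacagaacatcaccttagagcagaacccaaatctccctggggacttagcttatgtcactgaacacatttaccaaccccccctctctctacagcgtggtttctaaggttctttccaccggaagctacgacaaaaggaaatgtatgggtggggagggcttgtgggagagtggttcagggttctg
The Il7r window held 1 STAT, 1 ETS and 1 RUNX match, none overlapping another, and no TCF/LEF or FOXO match. The STAT letters begin at base 109 of the window, the ETS letters, read on the opposite strand, at base 202 and the RUNX letters at base 254. In the Il2rg window only the RUNX letters were found, beginning at base 24. Of 32851 promoter windows of 300 bases in the RefSeq table, 16.0% held the TCF/LEF letters, 3.65% FOXO, 8.30% STAT, 23.8% ETS and 16.8% RUNX. Promoter windows were matched for 7 of the 8 members.

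Il2rb encodes the beta chain that the IL-2 and IL-15 receptors share (ENSMUSG00000068227.9, chromosome 15, 78479256 to 78495271, minus strand). On the CPM scale the GFP-negative libraries held 592, 660 and 723 and the GFP-positive ones 489, 450 and 454 (replicates 1 to 3), on 1958 to 3296 counts. All GFP-positive libraries were below all GFP-negative ones. The log2 fold change was -0.50 ± 0.14 (SE), rank 169 by unadjusted p, with an edgeR adjusted p of 0.206, and in DESeq2 the adjusted p was 0.0184. Over all 14 alternatives the adjusted p of Il2rb ran from 0.0184 to 0.629 and the log2 fold change from -0.58 to -0.43. Il2rb is also a gene of cytotoxic and natural killer cells. Cd8a, a coreceptor gene of the CD8 lineage, was also lower on average, at 113, 55.3 and 31.4 CPM in GFP-negative and 46.1, 25.3 and 10.3 CPM in GFP-positive libraries. With Cd8b1 it summed to 32.7 to 123 CPM and 14.1 to 51.8 CPM. The 5 natural killer and innate lymphoid markers summed to 47.1 to 123 CPM in GFP-negative and 30.1 to 812 CPM in GFP-positive libraries. The 812 CPM, in GFP-positive replicate 3, came mostly from Tyrobp and Fcer1g, at 487 and 302 CPM. The part of either marker list in the Il2rb values was not tested.

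Il2ra encodes CD25, the chain that gives the IL-2 receptor high affinity (ENSMUSG00000026770.5, chromosome 2, 11642807 to 11693193, plus strand). Its levels of 111, 123 and 170 CPM in GFP-negative and 85.2, 132 and 137 CPM in GFP-positive libraries overlapped. The log2 fold change was -0.19 ± 0.21 (SE; edgeR adjusted p = 0.827), and 0.022 without GFP-negative replicate 3. Regulatory T cells carry much CD25. Their defining gene Foxp3 had 13.0, 33.0 and 2.41 CPM in the GFP-negative libraries and 0, 0 and 0.861 CPM in the GFP-positive ones (replicates 1 to 3). The 5 regulatory T cell markers summed to 1309.5 to 1736 CPM in GFP-negative and 1119 to 1362 CPM in GFP-positive libraries. Nearly all of each sum was Ctla4 (478 to 826 CPM) and Tnfrsf4 (621 to 845 CPM, overlapping between the gates). Foxp3, Ikzf2 and Il10 had at most 33.0, 26.9 and 7.28 CPM, so the sums do not follow Foxp3. The part of these markers in the Il2ra values was not tested.

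Il15ra encodes the IL-15 receptor alpha chain, which presents IL-15 to neighbouring cells, and lies 12096 bases from Il2ra with no gene between them (ENSMUSG00000023206.16, chromosome 2, 11705290 to 11734317, plus strand). It had 44.2, 34.3 and 35.5 CPM in GFP-negative and 55.2, 45.5 and 46.9 CPM in GFP-positive libraries. The CPM groups were separated by a narrow margin, while on the TPM scale they overlapped, with 28.7 TPM in GFP-negative replicate 1 and 27.1 TPM in GFP-positive replicate 3. The log2 fold change was 0.37 ± 0.22 (SE; edgeR adjusted p = 0.627), and 0.41 without GFP-positive replicate 3.

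Il4ra encodes the IL-4 receptor alpha chain, which IL-13 receptors also use, and lies 23954 bases from Il21r with no gene between them (ENSMUSG00000030748.9, chromosome 7, 125552120 to 125579474, plus strand). It had 133, 121 and 95.8 CPM in GFP-negative and 127, 137 and 136 CPM in GFP-positive libraries. The groups overlapped, and only GFP-negative replicate 3 lay apart, on the low side. The log2 fold change was 0.19 ± 0.16 (SE; edgeR adjusted p = 0.742), and 0.077 without GFP-negative replicate 3. Exons of Il4ra overlap those of Gm44876 on the opposite strand, which had 2 counts in 1 library and 0 in the others. Myeloid cells also express Il4ra, which had 136 CPM in GFP-positive replicate 3, and their part in that value was not tested.

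Il21r, which encodes the IL-21 receptor (ENSMUSG00000030745.9, chromosome 7, 125603429 to 125633570, plus strand), had 435, 427 and 390 CPM in GFP-negative and 385, 415 and 352 CPM in GFP-positive libraries. The groups overlapped, and the difference was -0.12 ± 0.14 on the log2 scale (SE; edgeR adjusted p = 0.825), and -0.052 without GFP-positive replicate 3, the lowest library. Il9r, which encodes the IL-9 receptor (ENSMUSG00000020279.10, chromosome 11, 32187541 to 32200279, minus strand), rested on 27 to 113 counts. Its 14.7, 6.14 and 8.33 CPM in GFP-negative and 19.6, 7.59 and 11.6 CPM in GFP-positive libraries gave a difference of 0.41 ± 0.49 on the log2 scale (SE; edgeR adjusted p = 0.836). Without GFP-positive replicate 1, the highest library, the log2 fold change of Il9r was -0.023, so no direction was detectable for it.

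**Figure D2:**
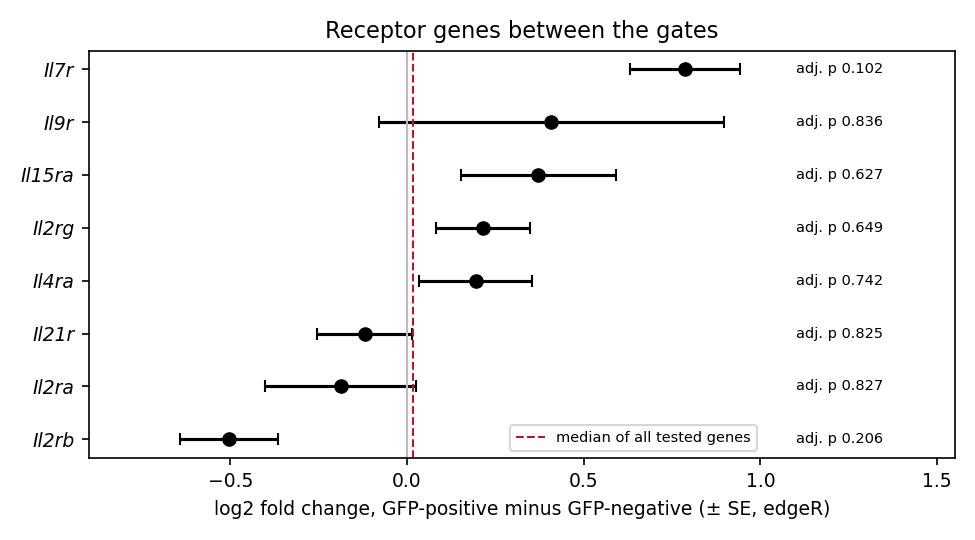
Log2 fold change of each receptor gene, GFP-positive minus GFP-negative, from edgeR, with bars of 1 SE and the adjusted p over 11074 genes at the right. Il7r (0.79) and Il2rb (-0.50) are the ends of the range, and the dashed line is the median of all tested genes (0.016).

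Il7r and Il2rb were the ends of the range of fold changes among the 8 genes. Since Il7r was higher and Il2rb lower, their ratio within a library had to differ more than either gene alone. The TPM of Il7r divided by that of Il2rb was 1.46, 1.14 and 1.39 for GFP-negative and 2.78, 3.42 and 3.57 for GFP-positive libraries (replicates 1 to 3). The 2 gates did not overlap in this ratio, and the mean of its log2 was 0.40 ± 0.18 and 1.70 ± 0.19 (SD, n = 3 each), a difference of 1.29. Relative to the common gamma chain, Il7r went from 0.677 ± 0.0915 in GFP-negative to 1.01 ± 0.129 in GFP-positive libraries and Il2rb from 0.511 ± 0.0620 to 0.310 ± 0.0141 (TPM ratios, SD, n = 3 each). Both ratios were separate between the gates, in opposite directions. Il21r over Il2rg was also lower without overlap, 0.417 ± 0.0251 against 0.332 ± 0.0475. Il21r itself overlapped between the gates (edgeR adjusted p = 0.825), and its divisor Il2rg was higher in GFP-positive libraries. The ratios of Il2ra, Il4ra, Il15ra and Il9r to Il2rg overlapped. Of the summed TPM of the 8 genes, Il7r made up 24.3% ± 2.36 in GFP-negative and 35.8% ± 2.59 in GFP-positive libraries, and Il2rb 18.3% ± 1.59 and 11.0% ± 0.664. These ratios and shares are descriptions built from the same libraries, and no test was made on them. For single genes, CPM groups did not overlap in either direction for 16.0% of those tested. No such share was computed for ratios.

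**Figure D3:**
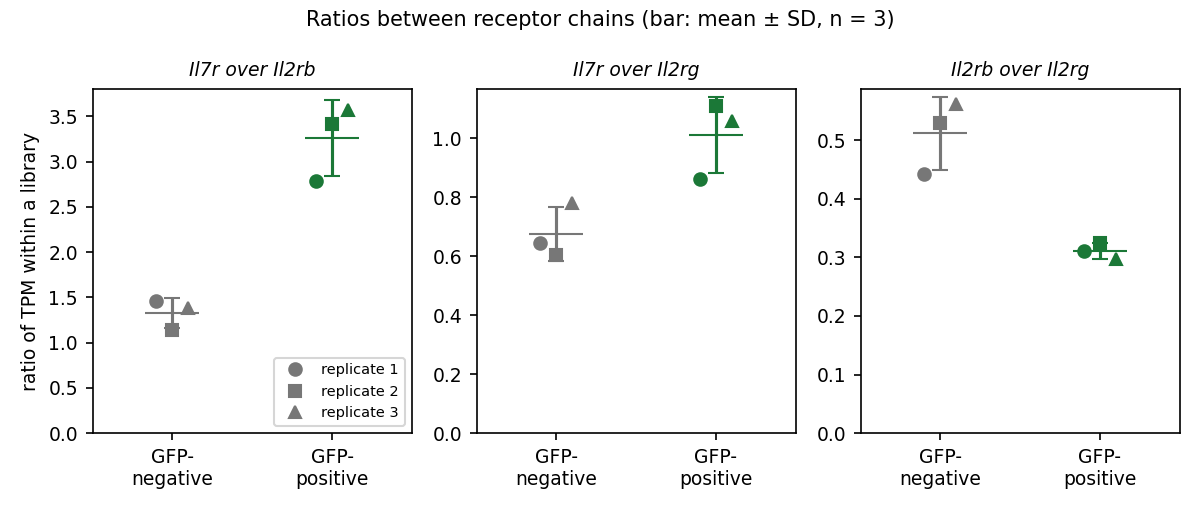
TPM ratios within each library, Il7r over Il2rb (left), Il7r over Il2rg (middle) and Il2rb over Il2rg (right), with the mean and SD of each gate (n = 3). The Il7r over Il2rb points lie between 1.14 and 1.46 in GFP-negative and between 2.78 and 3.57 in GFP-positive libraries.

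**Figure D4:**
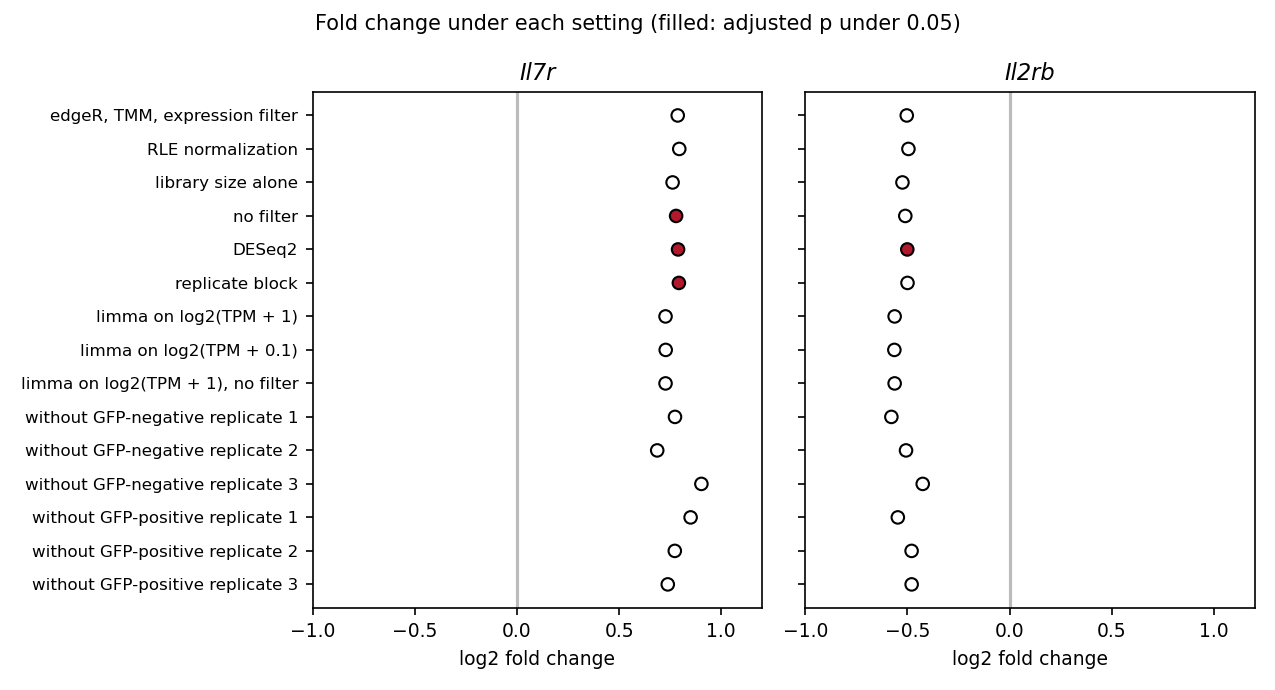
Log2 fold change (GFP-positive minus GFP-negative) of Il7r (left) and Il2rb (right) under the main setting, at the top, and each of 14 alternatives, filled where the adjusted p was under 0.05. All values of Il7r lie between 0.69 and 0.90 and all values of Il2rb between -0.58 and -0.43, while the call was made under 3 alternatives for Il7r and 1 for Il2rb.

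The cytokines that bind these receptors were mostly near the detection limit in the sorted T cells, and 3 of the 8 ligand genes passed the filter on low counts. Il2, the T cell growth factor, had 7.17, 11.4 and 8.11 CPM in the GFP-negative and 21.8, 21.2 and 25.1 CPM in the GFP-positive libraries. Its groups did not overlap (log2 fold change 1.35 ± 0.35 SE; edgeR adjusted p = 0.170). Il21, a product of follicular helper and Th17 cells, lay the other way, at 23.6, 13.0 and 19.3 CPM in GFP-negative and 2.60, 10.8 and 6.31 CPM in GFP-positive libraries (log2 fold change -1.51 ± 0.51 SE; edgeR adjusted p = 0.309). Il7, made mainly by stromal cells, had 0.388, 2.50 and 2.41 against 3.81, 3.68 and 4.88 CPM, on 2 to 34 counts (edgeR adjusted p = 0.690). Its highest value was in GFP-positive replicate 3, where the stromal and endothelial markers summed to 335 CPM, and their part in it was not tested. Il15, a product of myeloid and epithelial cells, had 10.2 CPM in GFP-positive replicate 3 and at most 1.73 CPM in the other libraries; the part of that library's myeloid and epithelial transcripts in this value was not tested. Il13 reached at most 2.96 CPM and Il4 1.86 CPM. Il9 was at 0 in 5 libraries and at 0.574 CPM in GFP-positive replicate 3, and Tslp was at 0 in 5 and at 0.143 CPM in that library. The edgeR test called 0 of the 3 tested ligands, and DESeq2 and limma called 0. At an unadjusted edgeR p under 0.05 there were 2, against 10.3% of all tested genes. CPM of the 3 tested ligands did not overlap, 2 being higher in GFP-positive libraries (Il2 and Il7) and 1 lower (Il21). Of all tested genes, 7.25% and 8.80% were so placed.

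Among 22 partner chains and signalling genes, 19 were tested and edgeR called 0, as did DESeq2 and limma. At an unadjusted edgeR p under 0.05 there were 3, against 10.3% of all tested genes. There were 8 positive and 11 negative log2 fold changes, with a median of -0.027. Jak1, whose kinase binds partner chains of the gamma chain, differed by 0.11 ± 0.15 on the log2 scale (SE; edgeR adjusted p = 0.863). Jak3, whose kinase binds the gamma chain, differed by -0.091 ± 0.21 (edgeR adjusted p = 0.925). Stat5a and Stat5b, the main transducers of IL-2, IL-7 and IL-15, had -0.27 ± 0.21 and 0.13 ± 0.18 (edgeR adjusted p = 0.718 and 0.866). The smallest adjusted p-values belonged to Akt1, a kinase of the PI3K pathway, at 23.3, 21.8 and 33.1 against 12.1, 9.89 and 9.75 CPM (edgeR adjusted p = 0.166), and Irs2, an adaptor of IL-4 signalling, at 34.1, 40.5 and 43.6 against 6.93, 18.4 and 25.0 CPM (edgeR adjusted p = 0.273). Jak2 (log2 fold change -0.55 ± 0.22) and Tyk2 (-0.41 ± 0.20), also on this list, had edgeR adjusted p-values of 0.416 and 0.540. Akt1, Irs2, Jak2 and Tyk2 each had lower CPM in every GFP-positive library, though Tyk2 overlapped on the TPM scale. They were the 4 genes of the list without overlap in CPM, and 0 were higher. Of all tested genes, 8.80% were lower without overlap and 7.25% higher. With no expression filter edgeR called Akt1 and Irs2. Crlf2, which joins Il7r in the TSLP receptor, had 35.5, 40.2 and 56.6 against 28.4, 42.8 and 58.5 CPM, and its groups overlapped.

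Of 22 target and feedback genes of STAT signalling, all tested, edgeR called 1, where 0.108% of all tested genes were called. At an unadjusted edgeR p under 0.05 there were 5, against 10.3% of all tested genes. CPM did not overlap for 4 genes that were higher in GFP-positive libraries and 3 that were lower. Of all tested genes, 7.25% and 8.80% were so placed. Socs3, a feedback inhibitor of cytokine receptors, rose from 131, 120 and 140 CPM in GFP-negative to 320, 256 and 383 CPM in GFP-positive replicates 1 to 3 (log2 fold change 1.29 ± 0.17 SE; edgeR adjusted p = 0.0125). Among the leave-one-out fits this call was made only without GFP-positive replicate 3 (edgeR adjusted p = 0.00953), and it was lost without each of the other 5 libraries and in limma on TPM. The list held 12 positive and 10 negative log2 fold changes, with a median of 0.049. Bcl2, a survival gene that IL-7 sustains, was higher in every GFP-positive library, at 154, 103 and 115 against 215, 209 and 209 CPM (edgeR adjusted p = 0.114; called in DESeq2, with the replicate block and with no filter). Prdm1, which encodes Blimp-1 and is induced by IL-2, was lower in every one, at 157, 160 and 169 against 82.4, 122 and 105 CPM (edgeR adjusted p = 0.158; called with no filter). Socs2, another feedback inhibitor, was lower as well, at 51.4, 60.5 and 46.3 against 31.3, 22.5 and 33.4 CPM (edgeR adjusted p = 0.212). Cish, a STAT5 target, had overlapping CPM and differed by -0.24 ± 0.15 on the log2 scale (SE; edgeR adjusted p = 0.633).

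Among 15 transcription factors linked to transcription of Il7r or Il2rb, 14 were tested and edgeR called 0, as did DESeq2 and limma. At an unadjusted edgeR p under 0.05 there were 5, against 10.3% of all tested genes. They split into 7 positive and 7 negative log2 fold changes, with a median of 0.040. Lef1, a relative of Tcf7, had 102, 100.1 and 116 CPM in GFP-negative and 168, 146 and 162 CPM in GFP-positive libraries (edgeR adjusted p = 0.158). Tbx21, which encodes T-bet, an activator of Il2rb, had 183, 160 and 139 against 130, 109 and 96.8 CPM (edgeR adjusted p = 0.268). Gfi1, a repressor of Il7r, had 30.4, 27.1 and 20.8 against 9.01, 13.8 and 16.9 CPM (edgeR adjusted p = 0.334). None of these 3, named for their small adjusted p, overlapped between the gates, Lef1 being higher and Tbx21 and Gfi1 lower in GFP-positive cells. Ets1, another of the 5, was lower without overlap, at 835, 899 and 856 against 647, 760 and 686 CPM (edgeR adjusted p = 0.463). Over the list, CPM did not overlap for 3 genes that were higher and 3 that were lower. Of all tested genes, 7.25% and 8.80% were so placed. Foxo1, an activator of Il7r, overlapped, its log2 difference being -0.35 ± 0.21 (SE; edgeR adjusted p = 0.638). Tcf7, whose reporter defined the gates, was among the 5 at an unadjusted p under 0.05 and was called with no filter. It was also among the genes without overlap in CPM, by a narrow margin, 140.5 against 140.8 CPM. On the TPM scale Tcf7 overlapped, with 139 TPM in GFP-negative replicate 2 and 120 TPM in GFP-positive replicate 3. Its difference was set up by the sort and is no separate result about a regulator.

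**Figure D5:**
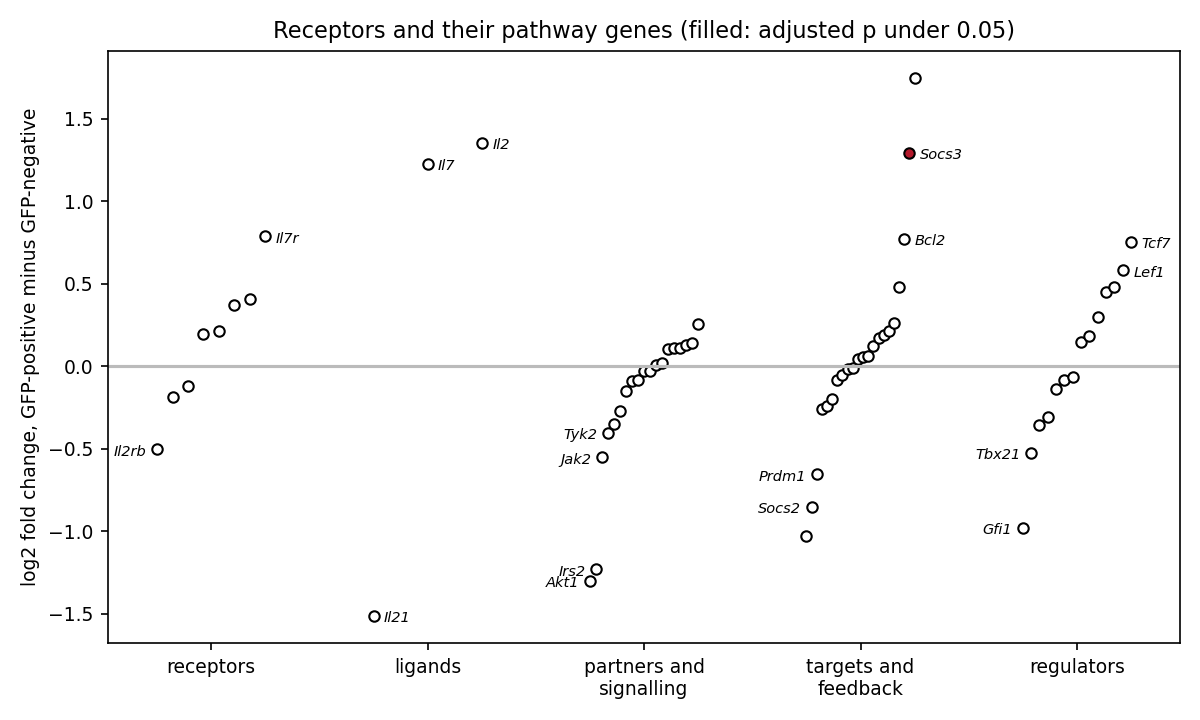
Log2 fold change (GFP-positive minus GFP-negative, edgeR) of the tested receptors, ligands, partner and signalling genes, target and feedback genes and regulators, each dot 1 gene in order of its value. Socs3 (1.29) is the filled dot, the one gene of these lists with an adjusted p under 0.05.

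Over the 6 libraries, the genes whose log2 CPM profile lay nearest to that of Il7r, among 6424 with at least 20 CPM on average, were Mrpl23, a mitochondrial ribosomal protein gene (root mean square difference 0.079), Tnfrsf26, a TNF receptor family gene (0.092), Eogt, a glycosyltransferase gene (0.10), and Gsdmd, which encodes gasdermin D (0.11). Tnfrsf26, for example, had 61.3, 62.1 and 72.4 CPM in GFP-negative and 101, 118 and 137 CPM in GFP-positive libraries. Nearest to Il2ra were Csnk2b, a casein kinase subunit gene (0.044), Hnrnpa1, an RNA-binding protein gene (0.061), Chp1 (0.073) and Mrpl20 (0.090). None of these 8 genes passed edgeR's test between the gates (adjusted p = 0.107 to 0.851).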

How the data were processed

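The authors deposited raw counts per gene and TPM for 6 libraries. The submitters' processing notes list mm10 with STAR 2.7.10b, fastp 0.23.3, deepTools 3.5.1 and SAMtools 1.17, and the counter and annotation behind the table are not given in the sources read here. Per the labels' protocols, cDNA was amplified by PCR and tagged by transposase, so strand and molecules are not recorded. The size of a count speaks to counting error only, while the SEs and p-values cover variation among these libraries. Counts were tested with edgeR 4.0.16 in R 4.3.3 (quasi-likelihood, TMM, minimum count 10, gate as the only term), with Benjamini-Hochberg adjustment over 11074 genes and a threshold of 0.05. Alternatives used RLE factors, library size alone, no filter, DESeq2 1.42.0, a replicate block, limma 3.58.1 on TPM with pseudocounts of 1 and 0.1, and 6 leave-one-out fits. The tests were also run on simulated counts, where all planted changes were larger than those of Il7r and Il2rb. That run does not bear on effects of their size. The members and lists were chosen with earlier results of these data known. Named were all members, all ligands, up to 4 genes per other list by smallest adjusted p, the 4 genes nearest Il7r and Il2ra, and Tcf7. Jak1, Jak3, Stat5a, Stat5b, Crlf2, Cish, Foxo1 and Ets1 were added after their values were seen. No libraries were duplicates (smallest chi-square per degree of freedom 10.7).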

Additional observations from a re-analysis of the deposited data

How the results depend on the processing

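The sign of the log2 fold change held in all 14 alternatives for Il7r, Il2rb, Il2rg, Il4ra, Il15ra and Il21r, and in 13 for Il2ra and Il9r. With 1 library left out, Il2ra ran from -0.31 to 0.022 (without GFP-negative replicate 3) and Il9r from -0.023 (without GFP-positive replicate 1) to 0.83. The median of the members ran from 0.084, without GFP-positive replicate 1, to 0.27 when 1 library was left out. Genes called over the whole table numbered 12, against 19 with library size alone, 373 with no filter, 156 in DESeq2, 1 and 0 in limma with pseudocounts of 1 and 0.1, 1 in limma with no filter, and 0 to 42 with 1 library left out. Members called were 0, against 1 with no filter, 2 in DESeq2 and 0 in every leave-one-out fit. With no filter edgeR called 2 partner and signalling genes, 3 targets and 1 regulator, Tcf7, whose reporter defined the gates. DESeq2 called 2 targets, the 3 limma fits 0, and leave-one-out fits 0 to 1. The cause of these differences was not tested. With the replicate block edgeR called 81 genes, 1 member (Il7r) and 3 targets. Deviations of same-numbered libraries correlated at 0.104, 0.0971 and 0.104 across genes, so by the rule of 0.1 in every pair the numbers were not taken as pairs; each library correlated best with its own number, a hint from the data and not from the design. Il9r rested on 27 to 113 counts per library, and 5 of the 8 ligands did not pass the filter on low counts.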
